A study of Mus musculus with 8 samples.

Results

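Rnls mutant NIT-1 beta cell grafts were taken from mice on day 10 or day 17 after diabetogenic splenocytes had been transferred, and the immune cells inside them were compared between the days. All 12134 annotated CD45+ cells of the Rnls mutant grafts were used, of 22441 cells in the whole series, with 6652 cells from day 10 and 5482 cells from day 17. NIT-1 is a beta cell line of the NOD mouse, a strain that develops autoimmune diabetes, and Rnls encodes Renalase, a flavoprotein. Each NOD.scid recipient, which lacks T and B cells of its own but keeps NK cells and myeloid cells, carried Rnls mutant NIT-1 cells under the skin of a flank and WT NIT-1 cells on the other side. Splenocytes from NOD mice with recent diabetes were injected into a vein 4 days later, so that the immune cells of a graft can come from donor or host. Grafts were digested with collagenase and DNase, living CD45+ cells were sorted, and each graft was tagged with its own hashtag antibody. The mutation lies in the beta cells and not in the sorted immune cells, and the Rnls transcript of these libraries therefore does not check the labels. No age or sex of the mice, and no statement on whether the Rnls mutant line was a single clone, was given in the sources used here.

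Each day was represented by 4 Rnls mutant grafts, which were pooled in 1 droplet library per day, so that a difference between days and a difference between the libraries cannot be told apart. The mice of the 2 days were different animals. The 8 WT grafts (7617 cells on day 10 and 2690 on day 17) entered the fits to share the estimate of spread and to test whether the change with time differed between genotypes. A Rnls mutant graft held 1516 to 1839 cells on day 10 and 546 to 1932 on day 17, where graft 4 was the smallest. The total count per graft lay between 6596553 and 8085324 unique molecular identifiers (UMIs, counted RNA molecules) on day 10 and between 1742746 and 7324681 on day 17, and the median cell held 3253 to 3851.5 and 2881.5 to 3234.5 UMIs. The libraries of both days shared 9 cell barcodes.

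Macrophages and monocytes clear dying cells and present antigen, and they respond to interferon-gamma from T cells with chemokines that attract more T cells. CD8 T cells recognise peptides of beta cells on MHC class I and kill with granzymes, CD4 T cells supply help and cytokines, and regulatory T cells restrain both. NK cells and type 1 innate lymphoid cells (ILC-1) respond without a T cell receptor, and dendritic cells (DC) prime T cells. The cell types are those annotated by the authors. Their defining markers were found in most: summed over the 4 grafts, Foxp3 reached 288 counts per 1000000 UMIs (CPM) on day 10 and 305 on day 17 in the cells called Treg, and Cd8a reached 235 and 179 in CD8 T cells against 12.6 and 9.19 in CD4 T cells. The cells annotated Stem-Progenitor were an exception. Cd34 was at 0 CPM there on both days, Kit at 7.06 and 3.89, whereas Mki67, a marker of dividing cells, was at 262 and 619.7 and the T cell gene Cd3e at 328 and 789. The name is kept below only as the annotation. The cells annotated as B cells held different markers on the 2 days. Their B cell genes Cd79a and Ms4a1 were at 2227 and 1259 CPM on day 10 and at 342 and 40.7 on day 17. The plasma cell genes Jchain and Mzb1 were at 0 and 1453 CPM on day 10 and at 28749 and 4797 on day 17. Of the beta cell genes, Ins1 and Iapp were at 0 CPM in all types on both days. Ins2 was at 5.85 CPM in the cells annotated Stem-Progenitor on day 10 and at 0.375 in macrophages on day 17, and Chga at 0.244 in the former and 0.219 in monocytes on day 10, and both were at 0 in the other types and days.

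Macrophages took a larger share of the annotated CD45+ cells on day 17 than on day 10. They made up 26.9, 19.5, 7.41 and 9.84% of the cells of the 4 grafts on day 10 and 61.0, 65.5, 60.4 and 57.7% on day 17, so that each day 17 graft stood above all day 10 grafts. The mean rose from 15.9% ± 9.01 (SD, n = 4) to 61.1% ± 3.23 (SD, n = 4). Monocytes, their blood-borne precursors, were at 14.8, 16.6, 10.3 and 13.7% on day 10 and at 1.81, 2.40, 2.03 and 2.93% on day 17. CD8 T cells took 18.8, 17.0, 23.5 and 19.4% on day 10 and between 7.26 and 7.88% in the grafts of day 17, which hardly differed among themselves. The cells annotated Stem-Progenitor were at 4.90% ± 2.19 (SD, n = 4) and 0.994% ± 0.501 (SD, n = 4), and DC at 4.82% ± 0.698 and 3.04% ± 0.620 (SD, n = 4 each).

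For these 5 types the grafts of the 2 days did not overlap, which gives p = 0.0286 in a two-sided exact permutation test, the smallest p that 4 grafts against 4 allow, and 0.0686 after adjustment over the 12 types. Cell numbers were also tested with edgeR, with the cells of the graft as library size. The log2 changes were -2.61 for monocytes, 1.94 for macrophages, -2.23 for the cells annotated Stem-Progenitor, -1.38 for CD8 T cells and 2.84 for B cells. Each had an adjusted p under 0.05. DC, whose shares did not overlap, changed by -0.66 in the edgeR test and did not pass (adjusted p = 0.213). B cells were few, with 2 cells on day 10 and 15 on day 17, and their shares did not pass (exact permutation p = 0.171, adjusted 0.257). CD4 T cells made up 28.96% ± 10.5 on day 10 and 16.3% ± 3.75 on day 17 (SD, n = 4 each), and graft 1 of day 10, at 13.5%, lay among the day 17 grafts (exact permutation p = 0.114, adjusted 0.229). NK cells were at 5.84% and 3.20% (adjusted exact permutation p = 0.267), ILC-1 at 0.534% and 1.61% (0.257), Treg at 2.52% and 1.85% (0.543), granulocytes at 2.92% and 1.75% (0.309) and mast cells at 0.0306% and 0.0902% (0.405). Shares sum to 100 in each graft, and a type that keeps its number therefore loses share when macrophages gain it. In WT grafts macrophages went from 17.0% to a mean of 48.9% with a range of 29.9 to 79.6%, and for no type did the difference between the genotypes' changes pass the test (lowest adjusted p = 0.845, exact permutation test of the difference).

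**Figure D1:**
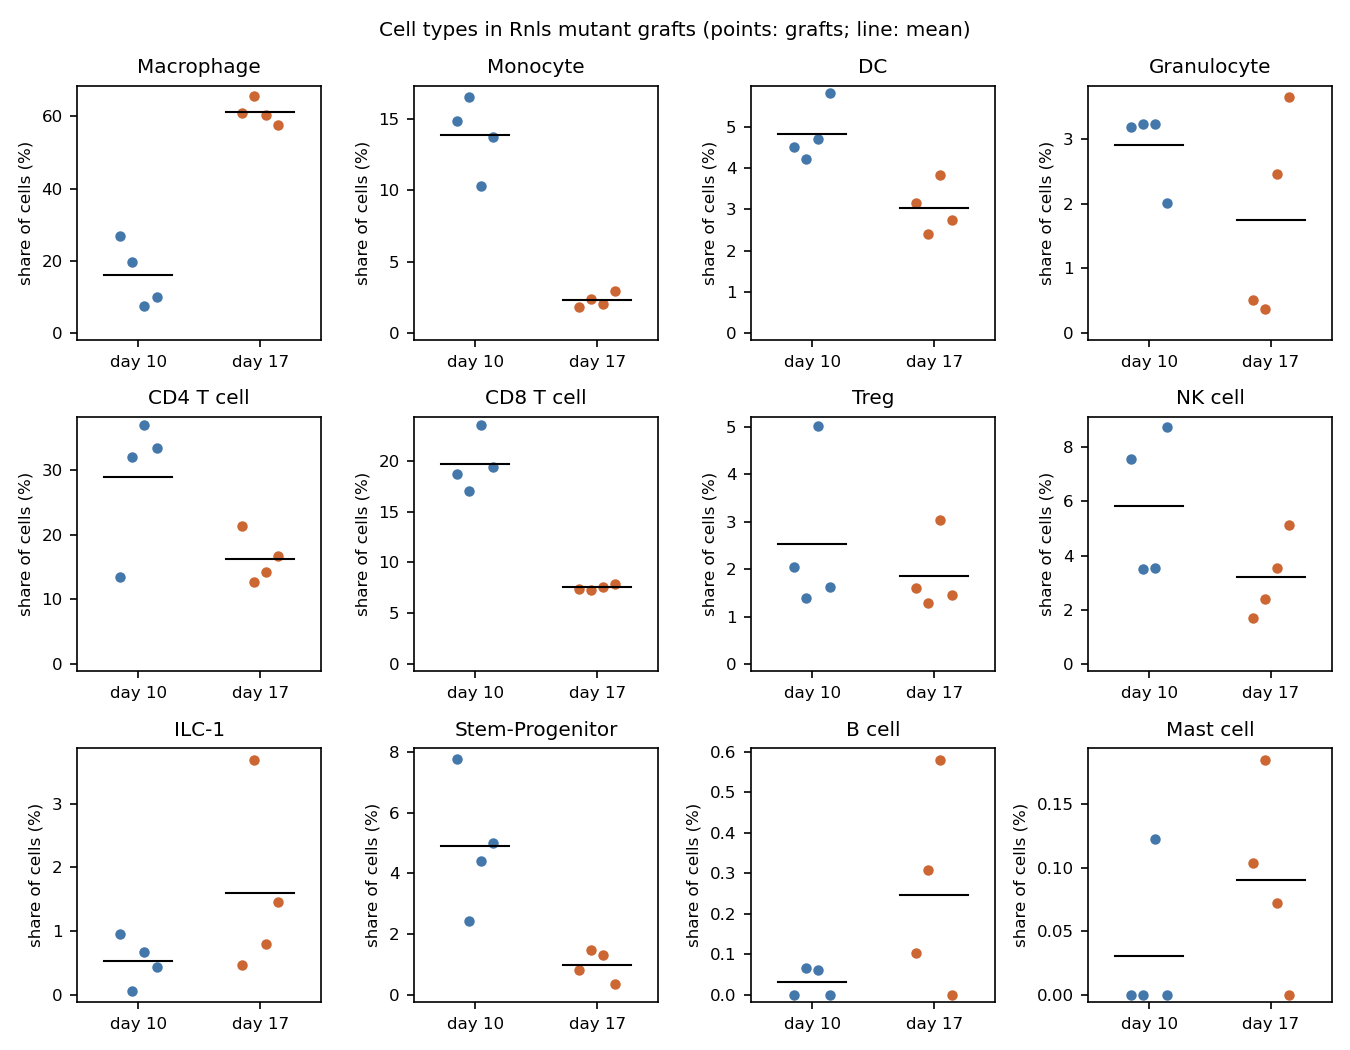
Share of all annotated cells of a graft (y axis, percent, a scale of its own in each panel) that each of the 12 cell types took on day 10 and day 17 in Rnls mutant grafts. Points are grafts and lines are means; macrophages sat between 7.41 and 26.9% on day 10 and between 57.7 and 65.5% on day 17.

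Gene levels were compared within each cell type on UMIs summed per graft. A gene was called when its adjusted p was under 0.05, levels are CPM, and changes are log2 fold changes of day 17 against day 10, so that a change of 1 is a factor of 2. The library size behind CPM is the total of that cell type in that graft, corrected by TMM (trimmed mean of M-values). Of 9331 genes tested in macrophages, 1928 were higher (20.7%) and 1995 lower (21.4%) on day 17. In CD4 T cells 949 of 7858 were higher (12.1%) and 817 lower (10.4%), and in CD8 T cells 376 of 6379 were higher (5.89%) and 291 lower (4.56%). DC had 429 higher (7.53%) and 401 lower (7.04%) genes of 5700. Far fewer genes were called in monocytes, with 103 higher (1.27%) and 155 lower (1.92%) of 8092, and in NK cells, with 48 higher (1.47%) and 39 lower (1.2%) of 3263. Depth differed between types: a macrophage sample held 859531 to 5013987 UMIs, a monocyte sample 41086 to 1255578 and a granulocyte sample 12529 to 74642. Without TMM the median change of all genes moved from 0.015 to 0.149 in macrophages and from -0.079 to 0.084 in monocytes, and the split moved to 2462 higher and 1435 lower in macrophages, 1219 and 509 in CD4 T cells, 475 and 182 in CD8 T cells, and 172 and 90 in monocytes.

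**Figure D2:**
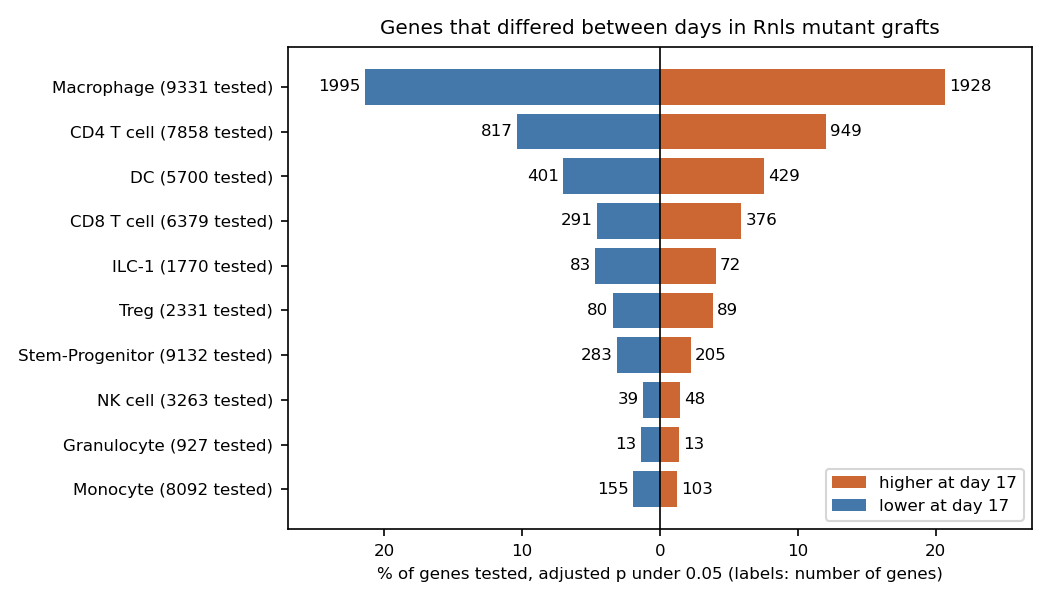
Percent of the genes tested in each cell type (x axis) with an adjusted p under 0.05, higher on day 17 to the right and lower to the left, with the number of genes at each bar. Macrophages had the longest bars in both directions (1928 and 1995 genes) and monocytes, NK cells and granulocytes the 3 shortest.

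A fall of heat shock genes was shared by most cell types. These encode chaperones that refold proteins, and heat, oxidants or other protein damage induce them. Hspa1a, the inducible HSP70, was lower on day 17 in 9 of the 9 types in which it was tested, as were Hsph1, an exchange factor of HSP70, and Hspe1, a chaperonin of mitochondria. Hsp90aa1, Hsp90ab1 and Hspa8 were lower in 9 of 10 types, and Hspa1b and Hspd1 in 8 of 9. The exceptions were granulocytes for the first 3 of these genes, ILC-1 for Hspa1b and Treg for Hspd1. The list of immediate early and heat shock genes was divided into its heat shock members and the rest after the values had been seen, and 7 of the 7 heat shock members were lower in CD4 T cells, CD8 T cells, DC, macrophages, monocytes, NK cells and the cells annotated Stem-Progenitor, with medians between -3.47 and -1.98. In granulocytes Hsp90aa1 lay at 461, 699.8, 513 and 275 CPM on day 10 and at 92.5, 299 and 53.3 on day 17 (adjusted p = 0.271).

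In CD4 T cells Hspa1a was measured at 1721, 1394, 1198 and 555 CPM in the day 10 grafts and at 20.8, 33.03, 27.2 and 41.4 CPM on day 17. No graft of either day came near those of the other, and Hspa1a fell by 5.46 (SE 0.51, adjusted p = 6.6e-08). In macrophages the levels were 4076, 4072, 2383 and 1590.0 on day 10 and 73.8, 380.3, 321 and 958 on day 17 (-2.82 with SE 0.61 and adjusted p = 0.00135). The day 17 macrophages thus kept more Hspa1a than the T cells of the same grafts, and graft 4 of day 17 kept the most. Hspa1a lay at 2811, 1528, 1249 and 633 CPM in DC on day 10 and at 27.1, 139, 161 and 55.2 on day 17 (-3.95 with SE 0.61 and adjusted p = 0.000363). In monocytes it lay at 2675, 2110.0, 1654 and 959 and at 15.8, 112, 74.5 and 285 (-4.23 with SE 0.58 and adjusted p = 0.000308). Without overlap of the days, Hspa1a lay at 229 to 880.3 CPM and 10.8 to 42.8 CPM in CD8 T cells. It lay at 234 to 1284 and 0 to 15.6 in NK cells, at 109 to 618 and 0 to 24.6 in Treg and at 177 to 1281 and 0 to 18.7 in the cells annotated Stem-Progenitor. The changes in these types were -4.65, -6.32, -4.90 and -6.33, and the highest adjusted p was 0.00058. In ILC-1, with 2 grafts a day, the call was lost without graft 1 of day 10, without graft 2 or 3 of day 17 and in DESeq2 (adjusted p up to 0.671).

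The highest and the lowest graft of day 10 in Hspa1a were the same across cell types. On day 10, graft 1 had the highest and graft 4 the lowest Hspa1a in 8 of the 8 types with all 4 grafts. On day 17 the highest level was in graft 4 in 4 of 6 types and in graft 3 in the other 2, and the lowest was in graft 1 in 4 types and in graft 2 in 2. Hsph1 of day 10 was highest in graft 1 in 5 of 8 types, in graft 2 in 2 and in graft 3 in 1, and lowest in graft 4 in 7 types and in graft 2 in Treg. No value here bears on what set the grafts apart. Hsph1 itself fell by 4.02 (SE 0.37, adjusted p = 1.57e-06) in macrophages, where it lay at 236 to 710.0 and 16.6 to 51.5 CPM, and fell by 4.26 (SE 0.30, adjusted p = 5.71e-10) in CD4 T cells (634 to 1144 and 34.4 to 96.6). It fell by 3.96 (SE 0.31, adjusted p = 1.16e-10) in CD8 T cells (614 to 1011 and 23.99 to 118). Hsp90aa1, an abundant cytosolic chaperone, fell by 3.06 (SE 0.32, adjusted p = 4.38e-06) in macrophages and fell by 2.89 (SE 0.18, adjusted p = 1.01e-10) in CD4 T cells, at 2448 to 3314 and 321 to 552 CPM. WT grafts showed the same direction: Hspa1a averaged 500.2 CPM on day 10 and 26.7 on day 17 in CD4 T cells, and the difference between the genotypes' changes was -0.55 with SE 0.90 and adjusted p = 0.928.

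**Figure D3:**
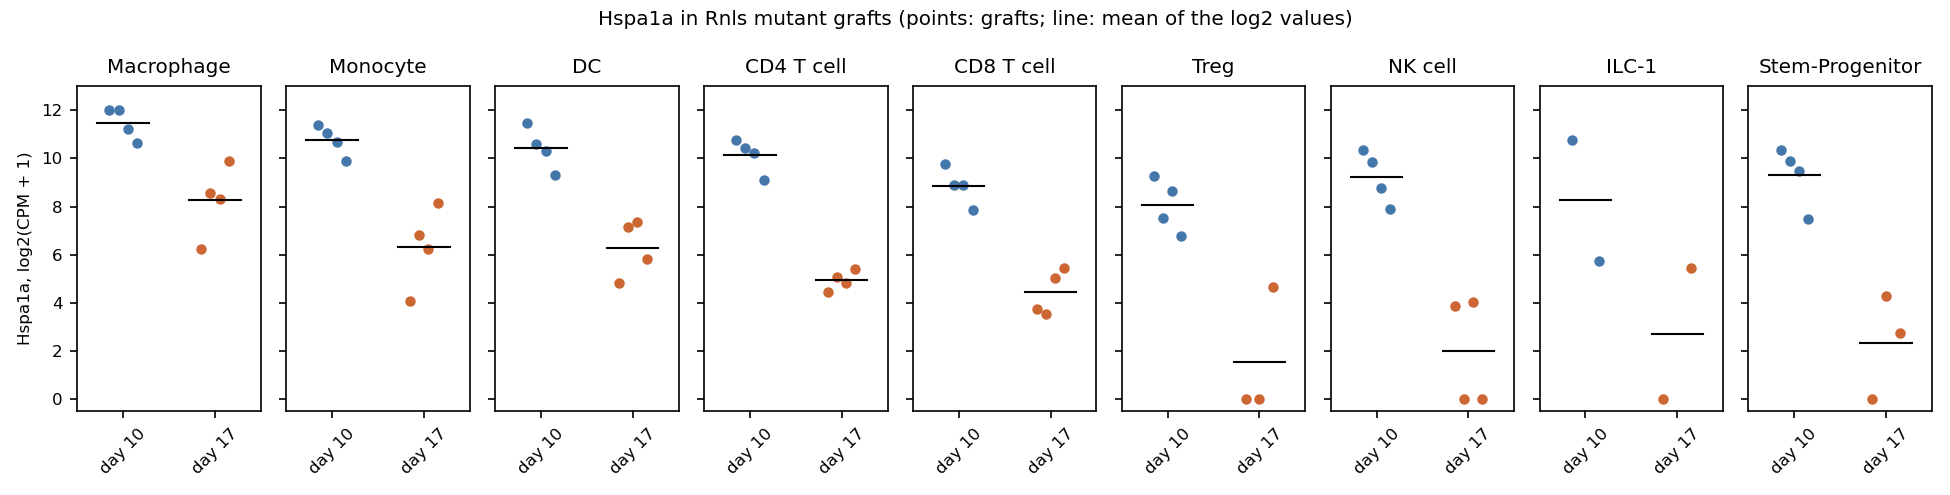
Hspa1a per Rnls mutant graft (y axis, log2 of CPM + 1) on day 10 and day 17 in the 9 cell types where the gene was tested; points are grafts and lines are means of the log2 values. All day 17 points lie below all day 10 points within each type, and graft 1, the leftmost of day 10, is the highest of that day in each type with 4 grafts.

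The promoters of these genes are shown because their shared letters can be set beside the shared fall. Heat shock factor binds repeats of a short element, and the pair GAANNTTC (or TTCNNGAA, its other orientation) was searched on both strands in the 150 bases before the start, with sequences of RefSeq on GRCm38.p6. It occurs in 7.73% of 32851 promoters, counted 1 per start. It also occurs at 1 start or more of 5 of the 5 heat shock genes found in the table (Hspa1a, Hspa1b, Hsph1, Hspd1 and Hspe1). These 5 are not independent. The windows of Hspa1a and Hspa1b are nearly identical, and Hspd1 and Hspe1 hold the same 3 pairs on opposite strands. The second start of Hspd1 has 0 matches. Capitals mark the pair. The Hspa1a window is chr17:34972157-34972306 on the minus strand. The Hspe1 window is chr1:55087998-55088147 on the plus strand and overlaps that of the first Hspd1 start on the opposite strand.
Hspa1a: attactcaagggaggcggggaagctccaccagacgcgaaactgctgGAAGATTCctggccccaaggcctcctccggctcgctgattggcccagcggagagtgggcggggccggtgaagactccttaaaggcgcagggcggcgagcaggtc
Hspe1: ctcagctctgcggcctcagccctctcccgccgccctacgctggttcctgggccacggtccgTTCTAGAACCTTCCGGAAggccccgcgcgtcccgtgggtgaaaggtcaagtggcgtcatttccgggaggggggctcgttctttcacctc
Hspa1a has 1 pair and Hspe1 has 3 that overlap. A match describes letters and no binding in these cells.

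Macrophages had the highest share of called genes, with 20.7% of all genes tested higher and 21.4% lower. The counts of list members below are to be read beside these shares. Most genes induced by interferons, most inflammatory monocyte and glycolysis genes and most nuclear genes of the respiratory chain were lower on day 17, and the genes of resident tissue macrophages that passed the test were higher. The annotated macrophages came from different clusters on the 2 days, with clusters 4 and 13 holding 70.9 and 17.3% of them on day 10 and 5.07 and 0.649% on day 17, while clusters 2, 5 and 10 held 38.1, 31.8 and 14.7% on day 17. The summed sample of a graft therefore compares different mixtures of macrophages, and fewer cells of a state and less RNA per cell cannot be told apart. Leaving out any 1 graft moved the number of called genes by less than 1.5 times.

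Of the type I interferon response genes, which interferon-alpha and -beta induce against viruses, 26 of 35 tested were lower and 0 higher, with a median change of -1.05 against 0.015 for all genes. Isg15, a ubiquitin-like antiviral protein (chromosome 4, 156199424 to 156200818, minus strand), lay at 1097, 503, 567 and 669 CPM on day 10 and at 38.2, 42.1, 44.3 and 36.3 CPM on day 17. The 4 day 17 grafts were nearly equal, and Isg15 fell by 4.13 (SE 0.40, adjusted p = 2.51e-06). Irf7, the transcription factor that amplifies the interferon response, was at 369.6, 276, 271 and 234 and at 63.04, 41.3, 53.4 and 68.4 CPM and fell by 2.37 (SE 0.26, adjusted p = 6.3e-06). Zbp1, a sensor of nucleic acids in the Z form, fell by 1.71 (SE 0.20, adjusted p = 1.06e-05). Of the interferon-gamma response genes 22 of 33 were lower and 1 higher, with a median of -0.85. Cxcl9, the chemokine that draws T cells through CXCR3, lay at 1659, 1051, 1652 and 2491 CPM and at 244, 185, 456 and 210.4 CPM on the 2 days. Its highest graft of day 17 stood at less than every day 10 graft, and it fell by 2.64 (SE 0.37, adjusted p = 4.46e-05). Cxcl10, its relative, fell by 2.66 (SE 0.31, adjusted p = 8.99e-06). The gene that rose was Ciita, the master regulator of MHC class II, at 44.1 to 57.3 and 68.8 to 108 CPM. It rose by 0.91 (SE 0.20, adjusted p = 0.00173), and H2-Aa, a chain of MHC class II, rose by 0.44 (SE 0.12, adjusted p = 0.00834).

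A core of the interferon response element, GAAANNGAAA (or TTTCNNTTTC on the other strand), was searched in the same way. It occurs in 1.59% of the 32851 promoters and in 3 of the 10 interferon genes searched that were in the table, Isg15, Gbp2 and Rsad2. The Isg15 window is chr4:156200819-156200968 on the minus strand and the Gbp2 window chr3:142620513-142620662 on the plus strand, both on GRCm38.p6, with the core in capitals.
Isg15: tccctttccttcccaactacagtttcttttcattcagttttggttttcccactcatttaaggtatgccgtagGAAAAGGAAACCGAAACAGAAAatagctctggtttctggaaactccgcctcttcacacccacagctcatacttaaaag
Gbp2: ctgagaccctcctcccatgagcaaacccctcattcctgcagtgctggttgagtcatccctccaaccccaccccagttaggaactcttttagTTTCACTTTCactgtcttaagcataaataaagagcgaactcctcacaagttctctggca
Isg15 holds 3 overlapping matches and Gbp2, which was lower in DC, holds 1. Cxcl9, Cxcl10 and Irf7 have no match within these 150 bases.

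Of 23 genes of MHC class I presentation 15 were lower and 0 higher. Psmb8, a subunit of the immunoproteasome that cuts peptides for class I, was at 1134 to 1390.4 CPM on day 10 and at 505 to 637 on day 17 and fell by 1.16 (SE 0.12, adjusted p = 3.2e-06). Psme2, an activator of that proteasome, fell by 1.76 (SE 0.16, adjusted p = 9.31e-07). Of 12 checkpoint and costimulatory ligands 6 were lower and 1 higher. Cd274 encodes PD-L1, the ligand of the inhibitory receptor PD-1 (chromosome 19, 29367455 to 29388095, plus strand). It lay at 717, 603, 607 and 663 CPM on day 10 and at 359, 226, 292 and 193 on day 17, and fell by 1.27 (SE 0.22, adjusted p = 0.000279). Cd40, through which T cells activate macrophages, fell by 1.43 (SE 0.18, adjusted p = 2.03e-05).

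Of 25 inflammatory monocyte genes 18 were lower and 2 higher, with a median of -1.65. Il1b, the proinflammatory interleukin-1 beta, lay at 2680.0, 974, 1468 and 2174 CPM on day 10 and at 422, 235, 589 and 386 on day 17. The lowest day 10 graft, graft 2, was still above the highest of day 17, and Il1b fell by 2.16 (SE 0.34, adjusted p = 0.000105). Il1rn, the antagonist of its receptor, fell by 2.24 (SE 0.23, adjusted p = 4.14e-06). Nos2, the inducible nitric oxide synthase, was at 146 to 270.1 CPM on day 10 and at 6.77 to 29.3 on day 17 and fell by 3.43 (SE 0.60, adjusted p = 0.000265). Trem1, an amplifier of inflammation on myeloid cells, fell by 2.51 (SE 0.29, adjusted p = 9.72e-06), and Procr, the receptor of protein C, fell by 3.77 (SE 0.60, adjusted p = 0.000124). Inhba, a subunit of activin A, lay at 1145, 491, 638 and 703 CPM and at 31.99, 28.8, 80.95 and 19.4 CPM and fell by 4.16 (SE 0.50, adjusted p = 1.18e-05). Hspb1, a small heat shock protein, was at 35.6 to 553 and at 0.26 to 3.03 CPM and fell by 7.02 (SE 0.89, adjusted p = 1.79e-05). Ccr2, the receptor that guides monocytes into tissue, went the other way. It was at 84.9, 119.6, 173 and 127 and at 356, 256, 195 and 279 CPM and rose by 1.13 (SE 0.26, adjusted p = 0.00219).

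Among cytokines, 7 of 19 tested were lower and 2 higher, and without graft 3 of day 10 it was 11 that were lower. Osm, oncostatin M, was at 208, 117, 99.3 and 109 CPM on day 10 and at 56.6, 41.3, 49.01 and 48.2 on day 17 and fell by 1.47 (SE 0.29, adjusted p = 0.000802). Tnf was at 87.01, 88.6, 40.5 and 52.6 and at 28.04, 33.5, 31.7 and 42.2 CPM, where the days overlapped. Tnf fell by 1.07 (SE 0.34, adjusted p = 0.0172), but without graft 1 or graft 2 of day 10 it no longer passed (highest adjusted p = 0.0639 over the alternatives). Tgfb1, which encodes the regulatory cytokine TGF-beta 1, was at 138, 152, 199.9 and 221 and at 188, 198, 178 and 212 CPM, with overlapping days and a change of 0.14 with SE 0.16 and adjusted p = 0.519. Of 21 chemokines 10 were lower and 3 higher.

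Of the genes of energy metabolism, most of glycolysis and of the nuclear respiratory chain were lower. Of 20 glycolysis genes 13 were lower and 0 higher with a median of -1.17. Slc2a1, the glucose transporter GLUT1, lay at 146, 81.97, 148 and 109 CPM on day 10 and at 31.1, 35.8, 42.1 and 25.3 on day 17 and fell by 1.82 (SE 0.29, adjusted p = 0.000132). Pgam1, a phosphoglycerate mutase, fell by 1.50 (SE 0.25, adjusted p = 0.000201). Of 20 hypoxia response genes 11 were lower and 0 higher, among them Higd1a, a small protein of mitochondria (-1.44). Of the 59 respiratory chain genes encoded in the nucleus 53 were lower and 0 higher with a median of -0.67, whereas of the 13 encoded in mitochondria 1 was lower and 1 higher. Atp5b, the beta subunit of ATP synthase, was at 441 to 529.8 CPM on day 10 and at 215 to 259 on day 17 and fell by 1.05 (SE 0.11, adjusted p = 4.7e-06). Cox5b, a subunit of cytochrome c oxidase, fell by 1.08 (SE 0.12, adjusted p = 8.23e-06). The median macrophage held 5746.5 UMIs on day 10 and 3630 on day 17 in Rnls mutant grafts and 5702 and 7715 in WT grafts, and the part of depth in these levels was not tested.

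Of 27 resident macrophage genes tested, 11 were higher and 0 lower, with a median of 0.81. Of 32 genes of lipid uptake and lysosomes 11 were higher and 6 lower (7 higher without graft 2 of day 17). Of all genes tested in macrophages 20.7% were higher and 21.4% lower, and the 6 lower lipid and lysosome genes lay near that share. Mrc1, the mannose receptor CD206 (chromosome 2, 14229392 to 14332057, plus strand), lay at 90.02, 439, 129 and 213 CPM on day 10 and at 1013, 1078, 1129 and 1251 on day 17. The day 17 grafts were within a narrow range, and Mrc1 rose by 2.35 (SE 0.36, adjusted p = 8.55e-05). Selenop, a carrier of selenium, was at 215, 865, 121 and 329 and at 1505, 1715, 1613 and 2620.2 CPM and rose by 2.27 (SE 0.44, adjusted p = 0.000619). Apoe, the apolipoprotein that carries cholesterol, lay at 289, 1459, 223 and 629 CPM and at 2026, 5277, 5415 and 10241 CPM. The days did not overlap, though graft 2 of day 10 came near graft 1 of day 17, and Apoe rose by 3.14 (SE 0.73, adjusted p = 0.00244). Csf1r, the receptor of macrophage colony-stimulating factor, rose by 0.94 (SE 0.16, adjusted p = 0.000261), and Adgre1, which encodes F4/80, rose by 0.97 (SE 0.18, adjusted p = 0.00038). Abca1, which exports cholesterol, was at 220.1 to 270.3 CPM on day 10 and at 589 to 735 on day 17 and rose by 1.51 (SE 0.19, adjusted p = 1.51e-05). Agmo, an enzyme that cleaves ether lipids, was at 3.88 to 9.97 CPM on day 10 and at 69.9 to 122 on day 17 and rose by 3.81 (SE 0.30, adjusted p = 4.27e-07). Slc9a9, an endosomal sodium-proton exchanger, rose by 3.44 (SE 0.40, adjusted p = 8.78e-06). Retnla, a secreted product of alternatively activated macrophages that was named after its values were seen, lay at 109.8, 356, 1128 and 671 CPM and at 2368, 6520.0, 1649 and 5981 CPM (2.88 with SE 0.67 and adjusted p = 0.00255). Alternative activation genes as a list had no common direction, with 5 higher and 6 lower of 20 (3 higher without graft 1 of day 10). Fth1, the ferritin heavy chain that stores iron, fell by 1.43 (SE 0.21, adjusted p = 6.19e-05).

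The change of macrophages with time differed between Rnls mutant and WT grafts for 3 genes (0.0322%). Of the 9331 tested, 873 had an unadjusted p under 0.05 in the same edgeR test. DESeq2 called 43 and the test without a filter on low counts 9, and the number was 9 without graft 2 of day 10, 6 without graft 3 of day 17, 1 without graft 3 or 4 of day 10 or graft 2 or 4 of day 17, and 2 without graft 1 of day 17 or without the highest doublet scores. WT macrophages moved the same way in Isg15 and Mrc1, with Isg15 going from a mean of 591 to 82.7 CPM and Mrc1 going from 329.5 to 1044.

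**Figure D4:**
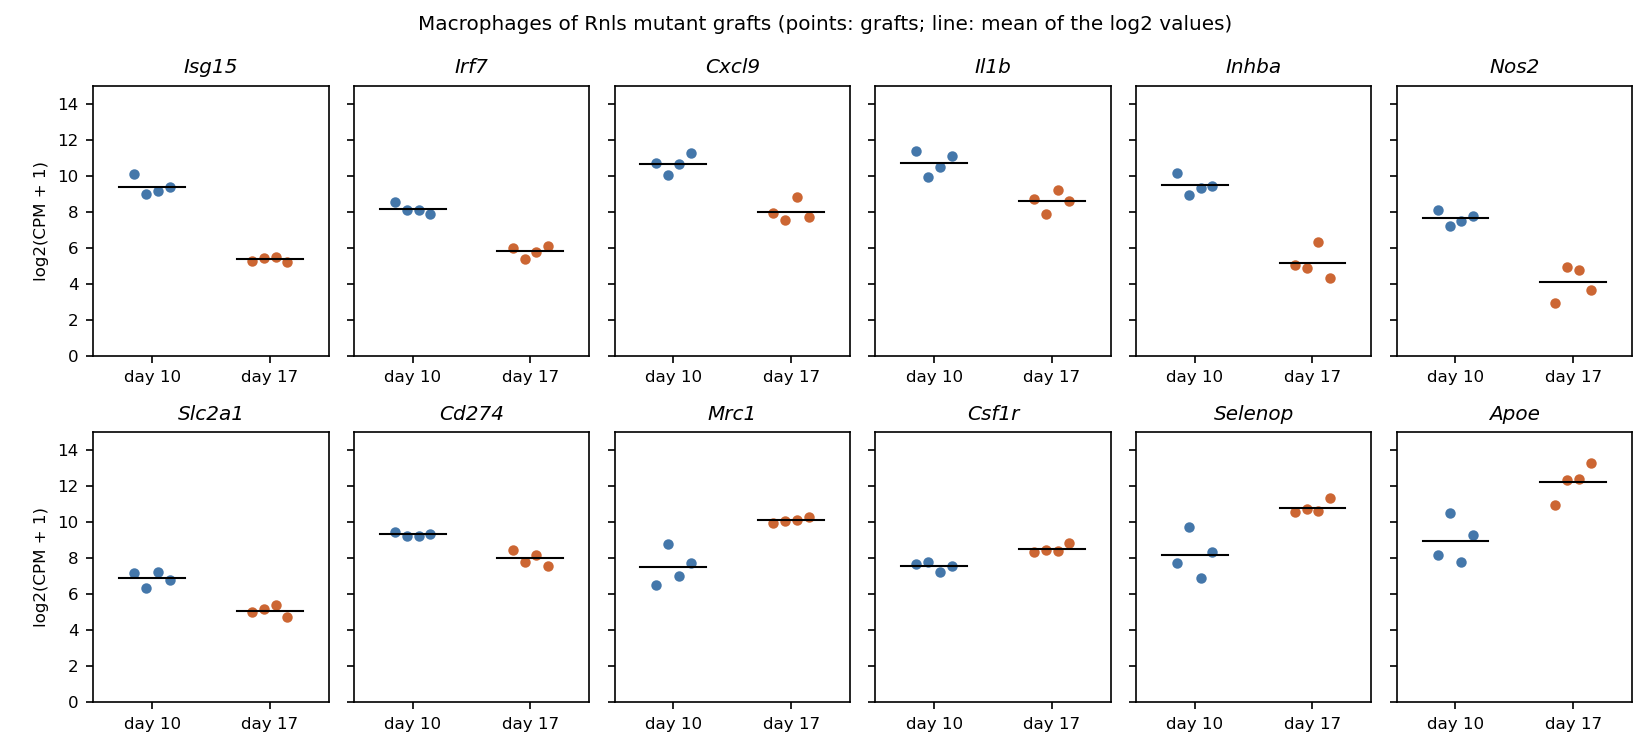
Levels of 12 genes in macrophages per Rnls mutant graft (y axis, log2 of CPM + 1) on day 10 and day 17; points are grafts and lines are means of the log2 values. Isg15, Irf7, Cxcl9, Il1b, Inhba, Nos2, Slc2a1 and Cd274 sit lower on day 17, and Mrc1, Csf1r, Selenop and Apoe sit higher, without overlap between the days.

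Monocytes, of which 918 cells were found on day 10 and 118 on day 17, showed the fall of heat shock genes and part of the fall of interferon genes. Cluster 1 held 76.7% of them on day 10 and 45.8% on day 17, and cluster 14 the rest. Of 35 type I interferon genes 7 were lower and 0 higher. That number was 4 without graft 2 or 3 of day 10 or graft 4 of day 17 and 3 without graft 1 or 2 of day 17. Oasl1, a relative of the antiviral oligoadenylate synthetases, lay at 266, 304, 244 and 247 CPM on day 10 and at 31.6, 18.6, 46.5 and 40.8 on day 17 and fell by 2.98 (SE 0.37, adjusted p = 5.51e-05). Isg15 fell by 2.16 (SE 0.35, adjusted p = 0.00144). Of 20 genes of endoplasmic reticulum stress 7 were lower and 0 higher, or 2 without graft 1 or 2 of day 17. Hspa5, the chaperone BiP, was at 2067, 2577, 1947 and 2469 CPM and at 443, 418, 782 and 591 CPM and fell by 2.03 (SE 0.20, adjusted p = 3.26e-06). Hmox1, heme oxygenase, fell by 2.82 (SE 0.45, adjusted p = 0.00129), Inhba fell by 3.74 (SE 0.65, adjusted p = 0.00275) and Hsph1 fell by 4.24 (SE 0.50, adjusted p = 3.76e-05).

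Cd36, a scavenger receptor, lay at 101, 85.6, 84.6 and 114 CPM in monocytes on day 10 and at 277, 595, 382 and 408 on day 17 and rose by 2.10 (SE 0.40, adjusted p = 0.00658). Ace, the angiotensin converting enzyme, and Cd300e, which are known from patrolling monocytes, were at 9.62 to 51.02 and 3.85 to 47.8 CPM on day 10 and at 102 to 353 and 112 to 223 on day 17. Their changes were 2.71 with SE 0.65 and adjusted p = 0.026 and 2.69 with SE 0.74 and adjusted p = 0.0471, and with 1 graft left out the adjusted p reached up to 0.175 and 0.195. Cd274 (-0.51 with SE 0.23 and adjusted p = 0.234) and Tgfb1 (0.62 with SE 0.22 and adjusted p = 0.117) did not pass. Monocytes had 116, 130 and 145 without graft 2, 3 or 4 of day 10 and 130, 83 and 115 without graft 1, 2 or 4 of day 17, against 258 called genes with all. For no gene did the difference from the change in WT grafts pass the test (0 of 8092, 0%, with edgeR, 408 genes at an unadjusted p under 0.05 and 3 called by DESeq2).

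In DC, Xcr1, Clec9a, Cadm1 and Tlr3, which are known from the conventional type 1 cells that present antigens of dead cells to CD8 T cells, were higher on day 17, and Ccr7, which guides migrating DC to lymph nodes, was lower. Cluster 19 held 18.6% of DC on day 10 and 58.9% on day 17, while clusters 17 and 21 fell from 39.3 and 33.7% to 13.1 and 11.3%. Xcr1, the chemokine receptor that marks these cells, lay at 10.7, 54.6, 92.4 and 45.4 CPM on day 10 and at 291, 189, 257 and 248 on day 17 and rose by 2.22 (SE 0.45, adjusted p = 0.0033). Clec9a, their receptor for dead cells, lay at 34.8, 57.02, 93.96 and 53.2 and at 254, 229, 194 and 207 CPM and rose by 1.86 (SE 0.30, adjusted p = 0.000471). Both days were well separated in each. Cadm1, an adhesion molecule of the same cells, rose by 2.56 (SE 0.24, adjusted p = 1.08e-05), Tlr3, a sensor of double-stranded RNA, rose by 3.27 (SE 0.48, adjusted p = 0.000293), and P3h2, a collagen prolyl hydroxylase, rose by 4.98 (SE 0.64, adjusted p = 7.64e-05). Of the 31 dendritic cell genes of the list 6 were higher and 5 lower, and the lower ones were Ccl17, Ly6d, Relb, Socs2 and Ccr7. Of the lower ones 0 were called without graft 1 or 2 of day 17 and 2 without graft 1, 2 or 4 of day 10 or graft 3 of day 17. Of 11 MHC class II genes 4 were higher and 0 lower (2 higher without graft 1 of day 10 or graft 2 of day 17), among them H2-Oa (1.23).

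Most interferon genes were lower in DC too. Of 27 type I interferon genes 17 were lower and 0 higher, with a median of -2.08, and 11 were lower without graft 1 of day 17. Of 28 interferon-gamma response genes 21 were lower and 0 higher, with a median of -1.43 against -0.018 for all genes. Cxcl9 was at 1638, 2157, 1398 and 3046 CPM on day 10 and at 382, 557, 479 and 41.4 on day 17. Graft 4 of day 17, with 15 DC, was far below the others, and Cxcl9 fell by 2.39 (SE 0.39, adjusted p = 0.000617). Cxcl10 fell by 2.41 (SE 0.53, adjusted p = 0.00542). Gbp2, a guanylate-binding protein that attacks vacuoles of pathogens, was at 402, 508, 457 and 422 and at 177, 80.9, 139.5 and 138 CPM and fell by 1.71 (SE 0.25, adjusted p = 0.000293), and Gbp4 fell by 2.35 (SE 0.35, adjusted p = 0.000308). Oasl2 fell by 4.83 (SE 0.71, adjusted p = 0.000293) and Xaf1, an antagonist of inhibitors of apoptosis, fell by 3.95 (SE 0.59, adjusted p = 0.000297). Il1rn fell by 3.49 (SE 0.45, adjusted p = 7.64e-05).

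Cd274 in DC lay at 816, 575, 359.9 and 777 CPM on day 10 and at 303, 225, 295 and 55.2 on day 17 and fell by 1.39 (SE 0.38, adjusted p = 0.021), a call that was lost without graft 1 or 4 of day 10 or graft 2 or 4 of day 17 (highest adjusted p = 0.0686). Pdcd1lg2, which encodes PD-L2, fell by 2.31 (SE 0.36, adjusted p = 0.0004), while Btla, an inhibitory receptor, rose by 1.71 (SE 0.32, adjusted p = 0.00197). Of 28 immediate early genes, which are switched on within minutes of a stimulus, 12 were higher and 0 lower in DC. Nr4a1, a nuclear receptor among them, lay at 72.3, 42.8, 55.7 and 54.7 and at 202, 193, 178 and 262 CPM and rose by 1.84 (SE 0.32, adjusted p = 0.0009). Psap, a lysosomal activator protein, rose by 1.24 (SE 0.21, adjusted p = 0.00066). The share of ribosomal protein genes in the UMIs of DC was 16.6 to 19.4% on day 10 and 20.0 to 22.3% on day 17, and its part in these results was not tested. In DC 517 genes were called without graft 4 of day 10 and 456 and 508 without graft 1 or 2 of day 17, against 830 with all. For 2 genes the change differed from that in WT grafts (0.0351%), against 14 with DESeq2, 39 without the filter on low counts and 1 without graft 4 of day 10.

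Lymphocytes of day 17 held macrophage transcripts. Summed over 12 macrophage markers, CD4 T cells held 189.8 to 217 CPM on day 10 and 1253 to 1483 CPM on day 17. In CD8 T cells the sums were 165 to 211 and 1267 to 1668, in NK cells 174 to 207 and 991 to 1382, in Treg 232 to 325 and 1167 to 1658, and in ILC-1 123 to 136 and 1287 to 1597 CPM. In the macrophages themselves the sums were 13676 to 24042 and 27192 to 40657. In CD4 T cells of WT grafts the same sums were 309 to 341 CPM on day 10 and 408 to 496 on day 17. In CD8 T cells of WT grafts they were 326 to 387 and 365 to 663. On day 10 the WT grafts thus lay above the Rnls mutant grafts in both types. None of the 12 markers was at 0 in CD4 or CD8 T cells on either day. Ccl8, a monocyte-attracting chemokine made by macrophages (chromosome 11, 82115185 to 82116799, plus strand), lay at 42.2, 44.8, 53.3 and 37.3 CPM in CD4 T cells on day 10 and at 505, 617, 530.2 and 579.8 on day 17. Its level in T cells was 1.16% of that in macrophages on day 10 and 10.1% on day 17. In macrophages Ccl8 lay at 2478, 7185, 1885 and 2804 and at 5173, 3905, 6288 and 5952 CPM. There the days overlapped, and the change was 0.57 with SE 0.33 and adjusted p = 0.183. Ccl8 in macrophages was not called in 13 of 14 alternatives. Over the 14 its change ranged from 0.357 to 1.16 and the adjusted p from 0.00202 to 0.421.

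**Figure D5:**
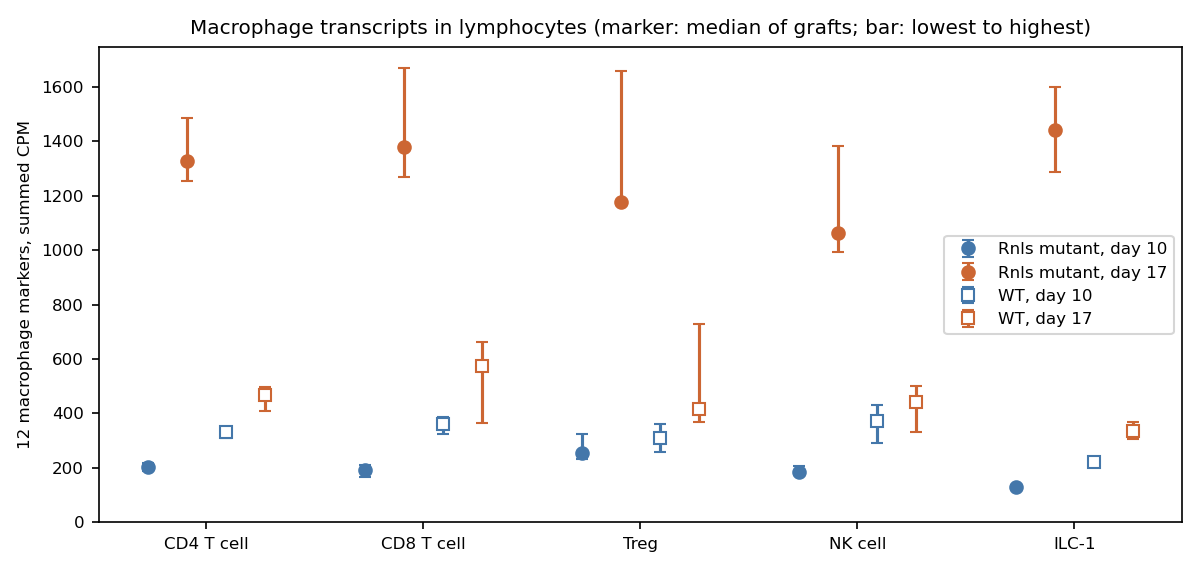
Summed level of 12 macrophage markers (y axis, CPM) in 5 lymphocyte types by genotype and day, with the median of the grafts as marker and their lowest to highest value as bar. Rnls mutant grafts of day 17 reached 991 to 1668 CPM and no other group exceeded 729 CPM.

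Among genes whose change with time differed between the genotypes, those at a far higher level in day 17 macrophages were counted. In CD4 T cells the change differed for 50 of 7858 genes (0.636%). Of these, 26 were at least 10 times as high in day 17 macrophages of Rnls mutant grafts as in the CD4 T cells of day 10. The same held for 1.63% of all genes tested there. In CD8 T cells the change differed for 42 of 6379 genes (0.658%), 19 of them of this kind against 1.25% of all. In NK cells the change differed for 13 genes (0.398%), 8 of them of this kind against 0.552% of all, and in Treg for 26 (1.12%), 4 of them of this kind against 0.686% of all. This measure was chosen after the data were seen. It uses the day 10 level of the same cells, which also enters the tested change. A low level on day 10 thus favours both, and the counts are no test of where the RNA came from. Among the genes higher in Rnls mutant CD4 T cells on day 17, 62 of 949 were of this kind. Lyz2, the lysozyme of macrophages, was at 53.04, 58.9, 72.1 and 85.9 CPM in CD4 T cells on day 10 and at 566, 650.3, 530.2 and 722 on day 17, whereas WT grafts averaged 147 and 183 (difference of the changes 2.85 with SE 0.22 and adjusted p = 1.3e-08). Apoe was at 1.21 to 4.29 and 157 to 206 CPM and Wfdc17, a secreted protease inhibitor of myeloid cells, at 16.4 to 19.9 and 273 to 336 CPM. On day 17, macrophages were 61.1% of the cells in Rnls mutant grafts and 48.9% in WT grafts. With the 6% of cells of highest doublet score left out, the rises of Apoe, Ccl8 and Lyz2 in CD4 T cells, CD8 T cells and NK cells kept their calls, and the part of RNA outside cells in them was not tested.

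In CD4 T cells the cytotoxic effector genes that passed the test were lower on day 17, and most genes of memory and trafficking and most immediate early genes were higher. Clusters 0 and 7 held 54.3 and 36.1% of them on day 10 and 6.39 and 17.9% on day 17, when cluster 8 held 69.8%. Of 23 T cell memory and trafficking genes 15 were higher and 1 lower, with a median of 0.65 against -0.0026 for all genes, and 9 were higher without graft 1 of day 17. Tcf7, the transcription factor TCF-1 that maintains T cells able to renew (chromosome 11, 52252371 to 52283014, minus strand), lay at 63.9, 57.04, 39.8 and 64.4 CPM on day 10 and at 174, 155, 115 and 101 on day 17 and rose by 1.36 (SE 0.29, adjusted p = 0.00205). Bach2, a repressor of effector fate, lay at 179.6, 225, 181 and 223 and at 498, 475, 429 and 322 CPM and rose by 1.11 (SE 0.18, adjusted p = 0.000138). Bcl2, which protects from apoptosis, rose by 1.15 (SE 0.28, adjusted p = 0.0048). Cd69, an early activation and retention marker, was at 225, 148, 169 and 153 and at 332, 322, 348 and 327 CPM and rose by 0.95 (SE 0.14, adjusted p = 5.19e-05). Of 28 immediate early genes 17 were higher and 1 lower. Nr4a3, a nuclear receptor induced by the T cell receptor, was at 99.5 to 116 CPM on day 10 and at 253 to 328 on day 17 and rose by 1.45 (SE 0.15, adjusted p = 4.3e-07), and Nr4a1 rose by 1.10 (SE 0.15, adjusted p = 3.15e-05). Ctla4, an inhibitory receptor, rose by 0.98 (SE 0.26, adjusted p = 0.00857).

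Of 17 cytotoxic effector genes in CD4 T cells 5 were lower and 0 higher. Gzmb, granzyme B, lay at 225, 414, 464 and 396 CPM on day 10 and at 94.2, 39.2, 64.1 and 96.6 on day 17 and fell by 2.36 (SE 0.43, adjusted p = 0.000475). Gzma fell by 2.80 (SE 0.40, adjusted p = 3.44e-05). Ifng, which encodes interferon-gamma, lay at 1556, 976, 634 and 979 CPM on day 10 and at 192, 301, 256 and 460.2 on day 17. Every day 17 graft stood below the lowest day 10 graft, and Ifng fell by 1.85 (SE 0.49, adjusted p = 0.00883). Havcr2, the inhibitory receptor TIM-3, was at 278 to 517 CPM on day 10 and at 43.4 to 115 on day 17 and fell by 2.34 (SE 0.45, adjusted p = 0.000846). Ccl1, a chemokine of activated T cells, fell by 4.95 (SE 1.00, adjusted p = 0.0013), and Cd70, a costimulatory ligand, fell by 1.90 (SE 0.42, adjusted p = 0.00287). Of 20 glycolysis genes 8 were lower and 0 higher (Aldoa -1.22, Gapdh -1.03), though 5 without graft 2, 3 or 4 of day 10, 3 without graft 1 and 4 without graft 2 of day 17. Of 59 nuclear respiratory chain genes 31 were lower and 0 higher (Cycs -0.86, Atp5c1 -0.53). Of 20 genes of endoplasmic reticulum stress 9 were lower and 2 higher, among them Pdia6, which forms disulfide bonds (-1.28). Tgfb1 (0.09 with SE 0.11 and adjusted p = 0.632), Tnf (0.13 with SE 0.17 and adjusted p = 0.649) and Cd274 (0.20 with SE 0.15 and adjusted p = 0.37) were not called. Without graft 1 of day 17, which holds 412 of the 907 CD4 T cells of that day, 1111 genes were called against 1766 with all.

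In CD8 T cells Gzmb and Gzma, which encode granzymes, were lower and most immediate early genes higher on day 17. Clusters 3 and 9 held 48.4 and 26.2% of them on day 10 and 69.4 and 22.7% on day 17. Clusters 16, 20 and 26 held 13.7, 10.8 and 0.992% on day 10 and 2.20, 2.20 and 3.42% on day 17. The mixture of CD8 T cells in a summed sample thus differed between the days. Of 15 cytotoxic effector genes 4 were lower and 0 higher, or 2 without graft 4 of day 10 or graft 3 of day 17. Gzmb lay at 1887, 1987, 2313 and 2679 CPM on day 10 and at 573, 549.8, 464 and 524 on day 17, a clear separation in which the day 17 grafts were almost alike, and fell by 2.07 (SE 0.29, adjusted p = 1.26e-05). Gzma was at 4151, 2934, 3319.6 and 4519.6 and at 938, 830.1, 484 and 1604 CPM and fell by 2.03 (SE 0.29, adjusted p = 2.08e-05). Ifng was at 262, 452, 275 and 431 and at 149, 169, 308 and 321 CPM with overlapping days (-0.67 with SE 0.30 and adjusted p = 0.156). Havcr2 fell by 1.97 (SE 0.23, adjusted p = 6.37e-07), and Cxcr6, a receptor that places T cells in tissue, fell by 0.73 (SE 0.13, adjusted p = 0.000357). Mt1, a metallothionein that binds zinc, fell by 1.96 (SE 0.26, adjusted p = 5.12e-06).

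Tox, the transcription factor of exhausted T cells, lay at 91.4, 32.6, 28.8 and 43.5 CPM in CD8 T cells on day 10 and at 170.3, 169, 384 and 85.5 on day 17, where the lowest day 17 graft fell just under the highest of day 10. Tox rose by 2.13 (SE 0.36, adjusted p = 0.000175). Irf4, induced by the T cell receptor, rose by 1.46 (SE 0.30, adjusted p = 0.00137), Nr4a3 rose by 1.23 (SE 0.18, adjusted p = 2.35e-05) and Cd69 rose by 1.24 (SE 0.21, adjusted p = 0.000224). Of 27 immediate early genes 16 were higher and 1 lower, and of 21 memory and trafficking genes 7 were higher and 3 lower. The 7 became 4 without graft 3 of day 10 or graft 4 of day 17 and 2 without graft 1 or 2 of day 17. Cd4, the coreceptor of helper T cells, which marks another cell type, was at 3.22, 26.7, 7.20 and 12.7 and at 65.03, 75.5, 179.9 and 42.8 CPM in CD8 T cells and rose by 3.06 (SE 0.46, adjusted p = 3.76e-05), while Cd8a was at 235 and 179 CPM. The part of CD4 T cells within the annotated CD8 T cells in these changes was not tested. Cd274 (-0.19 with SE 0.20 and adjusted p = 0.604) and Tgfb1 (0.21 with SE 0.15 and adjusted p = 0.434) were not called. In CD8 T cells 378 and 406 genes were called without graft 1 or 2 of day 17, against 667 with all. Lyz2, Ccl8 and Apoe rose in CD8 T cells by 3.06, 3.81 and 6.19, and these changes exceeded those in WT by 2.60 with SE 0.27 and adjusted p = 2.64e-07, 3.87 with SE 0.26 and adjusted p = 7.42e-11 and 4.12 with SE 0.53 and adjusted p = 1.4e-05.

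In Treg 89 of 2331 genes were higher (3.82%) and 80 lower (3.43%). Ikzf2, the transcription factor Helios that stabilises Treg, lay at 2268, 1792, 1973 and 2849.6 CPM in the 4 day 10 grafts and at 3420.4, 4833 and 4815 in grafts 1, 2 and 3 of day 17, since graft 4 had fewer than 10 Treg and was left out. It rose by 0.97 (SE 0.15, adjusted p = 0.000103). Tnfrsf18, the costimulatory receptor GITR, was at 1675, 1853, 1734 and 1541 and at 886, 929 and 946 CPM and fell by 0.88 (SE 0.17, adjusted p = 0.00214). Both genes separated the days fully, in opposite directions. Gzmb fell by 1.94 (SE 0.30, adjusted p = 0.000117), Ecm1, a secreted matrix protein, fell by 2.86 (SE 0.59, adjusted p = 0.00388) and Ndrg1, a hypoxia-induced gene, fell by 2.46 (SE 0.43, adjusted p = 0.000628). Ccl8 (3.92) and Lyz2 (3.07) rose with the macrophage transcripts given above. In Treg 82 genes were called without graft 3 of day 10 and 101, 75 and 66 without graft 1, 2 or 3 of day 17, against 169 with all, and DESeq2 called 85. Without the TMM correction 114 were higher and 59 lower.

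In NK cells 10 of the 48 higher genes were at least 10 times as high in day 17 macrophages as in day 10 NK cells. The same held for 0.552% of all genes tested there. Of the 39 lower genes 7 were the heat shock members of the list. Of 25 natural killer and ILC1 genes tested 1 was higher and 0 lower. Ccl4, a chemokine of activated NK cells, lay at 1209.8, 728, 1309 and 822 CPM on day 10 and at 2512, 2296, 2423 and 5417 on day 17 and rose by 1.62 (SE 0.30, adjusted p = 0.00167). Nr4a3 was at 329.9 to 390.4 and at 742 to 868 CPM and rose by 1.12 (SE 0.18, adjusted p = 0.000275), and 5 of 27 immediate early genes were higher and 0 lower, or 3 without graft 1 or 4 of day 10 and 1 without graft 1 of day 17. Odc1, the entry enzyme of polyamine synthesis, fell by 1.34 (SE 0.28, adjusted p = 0.0076). Cxcl10 fell by 2.45 (SE 0.54, adjusted p = 0.0117), a call lost without graft 1 or 3 of day 17 (highest adjusted p = 0.0615). Ifng lay at 313, 211, 402 and 250.1 CPM on day 10 and at 152, 63.8, 532 and 439 on day 17, widely spread on the later day, with a change of 0.05 with SE 0.45 and adjusted p = 0.984 that turned its sign in some alternatives. Tgfb1 was at 569, 408, 477 and 396 and at 428, 499.5, 297 and 321 CPM (-0.27 with SE 0.21 and adjusted p = 0.574). Lyz2 (2.64), Ccl8 (3.11) and Apoe (4.77) rose. In NK cells 54 and 55 genes were called without graft 1 or 2 of day 10 and 43 and 52 without graft 1 or 2 of day 17, against 87 with all.

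ILC-1 could be compared in grafts 1 and 3 of day 10 and grafts 2 and 3 of day 17, the 2 a day with 10 cells or more, with 36 cells on day 10 and 88 on day 17 over all grafts. Of 1770 genes 72 were higher (4.07%) and 83 lower (4.69%), and without graft 2 of day 17, which held 60 of the 88 cells, 4 genes were called. Without graft 1 of day 10 the number was 24 and without graft 3 of day 17 it was 25. Gzmb was at 3444 and 2653 CPM on day 10 and at 187 and 891 on day 17 and fell by 2.74 (SE 0.58, adjusted p = 0.0215). Tpi1, a glycolytic isomerase, fell by 4.45 (SE 0.72, adjusted p = 0.011), Mt1 fell by 3.45 (SE 0.73, adjusted p = 0.0212) and Gzmc fell by 3.03 (SE 0.85, adjusted p = 0.0464). Nr4a3 rose by 2.87 (SE 0.50, adjusted p = 0.0143), Cd69 rose by 2.70 (SE 0.75, adjusted p = 0.0457), Fos rose by 5.33 (SE 1.31, adjusted p = 0.0348) and Il7r, the receptor of interleukin-7, rose by 3.22 (SE 0.90, adjusted p = 0.0457). The fit with a graft left out leaves a lone graft on that day, which is assumed to vary like the other groups. Without graft 1 of day 10 Gzmb, Gzmc, Nr4a3, Cd69, Fos and Il7r were not called, without graft 2 of day 17 none of the 8 but Fos was, and without graft 3 of day 17 Gzmc, Fos, Cd69, Il7r and Mt1 were not (adjusted p up to 0.675). Fos and Gzmc were not called by DESeq2 either, nor Gzmc without TMM. Ccl8 was at 29.8 and 79.6 CPM on day 10 and at 781 and 1103 on day 17, and its call held. Hspa1a was at 1715 and 53.1 and at 0 and 42.4 CPM. Ribosomal protein genes took 21.7 to 29.9% of ILC-1 UMIs on day 10 and 13.5 to 14.2% on day 17. Without TMM, where the median change of all genes was 0.251 and not -0.008, 100 genes were higher and 46 lower. For 1 gene the change differed from WT (0.0565%).

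The cells annotated Stem-Progenitor carry genes of division, of T cells and of NK cells. Summed over all grafts of a day, their NK cell genes Ncr1, Klrb1c, Eomes and Klra8 were at 124, 17.8, 64.6 and 25.6 CPM on day 10. On day 17 these genes were at 25.6, 3.93, 43.3 and 21.6 CPM. Of 9132 genes 205 were higher (2.24%) and 283 lower (3.1%) in 4 grafts of day 10 and 3 of day 17. Graft 4 of day 17 was left out for its 2 cells. Of 36 genes of the G2 and M phases 12 were higher and 0 lower, and 6 were higher without graft 1 of day 10, 3 without graft 2 and 7 without graft 3 of day 17. Mki67 lay at 232, 256, 327 and 296 CPM on day 10 and at 617, 621 and 482 on day 17 and rose by 1.04 (SE 0.17, adjusted p = 0.00191), and Kif11, a motor of the spindle, rose by 1.34 (SE 0.23, adjusted p = 0.00295). Granzymes were lower: Gzma was at 12461, 10724, 8406 and 8136 and at 2719, 1130.1 and 975 CPM and fell by 2.64 (SE 0.49, adjusted p = 0.00531), and Gzmb fell by 2.45 (SE 0.26, adjusted p = 3.55e-05). Gzmc fell by 5.34 (SE 1.06, adjusted p = 0.00811) and was not called without graft 2 of day 17 (adjusted p = 0.0686). Gzmd fell by 6.21 (SE 1.77, adjusted p = 0.0494), but it was not called in DESeq2, without TMM, without the highest doublet scores or without any of 5 single grafts (adjusted p up to 0.209). Gzmf lay at 373, 1729.6, 811 and 323 CPM on day 10 and at 0 in each graft of day 17, at least 88.4-fold lower against a floor of 3 counts over the group, and not called without graft 2 of day 10 or any 1 graft of day 17 (adjusted p up to 0.133). Of 23 genes of endoplasmic reticulum stress 12 were lower and 0 higher, among them Hspa5 (-1.56), and 7 were lower without graft 2 of day 17. Mt1 fell by 2.65 (SE 0.31, adjusted p = 7.91e-05). The sum of 12 T cell markers in these cells was 2192 to 4045 CPM on day 10 and 5615 to 6917 on day 17, and cluster 11 held 65.8% of them on day 10 and 95.0% on day 17, so that the mixture of cells under this name differed between the days. The number of called genes was 307 without graft 1 of day 10 and 251 and 169 without graft 1 or 2 of day 17, against 488 with all, and without the TMM correction 317 were higher and 122 lower. The difference from WT could not be tested, because 1 WT graft of day 17 had enough cells.

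Granulocytes were few and of low depth, with a median of 1286 UMIs per cell on day 10 and 1214.5 on day 17. Of 927 genes 13 were higher (1.4%) and 13 lower (1.4%). Graft 2 of day 17, with 6 granulocytes, was left out of the fit. Atf3, a stress-induced repressor, lay at 2633, 2429.8, 3010.0 and 2910.1 CPM in the 4 grafts of day 10 and at 185, 789 and 693 in 3 grafts of day 17 and fell by 2.14 (SE 0.39, adjusted p = 0.00679). Hcar2, the receptor of niacin, was at 3287, 5229, 4763 and 5271 and at 740.4, 1252 and 1599.9 CPM and fell by 1.90 (SE 0.35, adjusted p = 0.00679). Tsc22d3, induced by glucocorticoids, fell by 2.67 (SE 0.65, adjusted p = 0.03), Ccl8 rose by 2.98 (SE 0.33, adjusted p = 1.45e-05), H2-Aa rose by 2.43 (SE 0.54, adjusted p = 0.0205) and Apoe rose by 4.43 (SE 0.92, adjusted p = 0.0158). Tsc22d3 was not called without graft 1 of day 17 (adjusted p = 0.0541), nor H2-Aa without graft 2, 3 or 4 of day 10 or graft 1 or 3 of day 17 (adjusted p up to 0.119). The summed macrophage markers in granulocytes were 1891 to 2437 CPM on day 10 and 3592 to 5346 on day 17, and their part in these rises was not tested. Cd274 was high on both days, at 4767, 4685, 5914 and 5271 and at 2221, 4055 and 3733 CPM (-0.60 with SE 0.35 and adjusted p = 0.399). The number of called genes was 9, 3, 5 and 4 without graft 1, 2, 3 or 4 of day 10 and 6 and 8 without graft 3 or 4 of day 17, against 26 with all. For 12 genes the change differed from WT (1.29%). Of these, 6 were at least 10 times as high in day 17 macrophages as in day 10 granulocytes, against 2.16% of all tested. The 6 were H2-Ab1, H2-Eb1, H2-Aa, Crip1, Ccl8 and Rps24, a ribosomal protein gene. The number of genes whose change differed was 19 with DESeq2, 21 without the filter and 5 without the highest doublet scores. It was 5 or 6 without graft 2, 3 or 4 of day 10, 4 without graft 3 and 8 without graft 1 or 4 of day 17.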

How the data were processed

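Graft-infiltrating CD45+ cells were profiled by droplet 3' single-cell RNA-seq with hashtag antibodies. Per the labels, reads were processed with Cell Ranger on the mouse build mm10, without a version. The deposited table holds raw UMI counts for 32285 genes and 22441 cells, and a second table gives the graft, cluster and cell type of each cell as assigned by the authors. The filters on cells are not given in the sources used here. In the Rnls mutant libraries the lowest cell held 1001 UMIs and the highest share of mitochondrial UMIs was 9.444%. Doublets were scored with Scrublet in Scanpy 1.11.5, whose own threshold marked 1 cell of day 10 and 0 of day 17. Whether that threshold missed doublets was not tested. As an alternative only, the top 6% of each library by score were dropped.

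Counts were summed per graft and cell type, with at least 10 cells per sum. Genes passing filterByExpr were tested with the quasi-likelihood test of edgeR 4.0.16 (R 4.3.3, limma 3.58.1) with TMM over all 16 grafts in 4 groups of genotype and day, and p-values were adjusted by Benjamini-Hochberg over all genes of a type, with a threshold of 0.05. Types needed at least 2 grafts on each day. The difference between genotypes was tested in the same fit. Shares were compared by two-sided exact permutation tests (SciPy 1.17.1) over 70 assignments, and the genotype difference over 4900. DESeq2 1.42.0, no filter, no TMM, Rnls mutant grafts alone, a replicate block, no high doublet scores and each graft left out were the alternatives. The code was tested on simulated data.

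Named genes were, per type, up to 6 higher and 6 lower with the largest fold among called genes of at least 50 CPM without overlap between days, up to 3 called members per list by smallest p, and genes that the study names for its single-cell data. Of these, the ones described were selected with their values known. The members and the 35 lists were chosen with earlier results of these data known. WT and Rnls mutant grafts came from opposite flanks of the same mice, but the labels do not tie a graft to its mouse, so that the genotype tests treat all grafts as independent. P-values measure the spread between grafts of 1 library. Intervals of counting error were not used. Droplet data count the 3' end of transcripts, so levels of different genes were not compared. Gene positions are from GENCODE vM21 (GRCm38) and promoters from RefSeq (GRCm38.p6), where 5 of 8 heat shock and 10 of 12 interferon genes were found.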

Additional observations from a re-analysis of the deposited data

Results flagged for a closer look

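In 18 of 306 groups of 4 grafts the highest or the lowest graft stood apart by Dixon's criterion, and chance alone marks about 1 group in 20. Among shares these were granulocytes in graft 4 of day 10 (lowest, 2.01%) and mast cells in graft 3 of day 10 (highest, 0.122%). In CD4 T cells they were Cd274 (165 CPM, lowest), Nr4a1 (134 CPM, highest) in graft 1 and Pdia6 in graft 4 (216 CPM, highest) of day 10, and Cd70 in graft 2 of day 17, which was at 0. In CD8 T cells they were Havcr2 in graft 3 (236 CPM) and Lyz2 in graft 1 (771 CPM) of day 17, both the highest. In macrophages they were Abca1 (270.3 CPM, highest) and Higd1a (215 CPM, lowest) in graft 2 and Osm in graft 1 (208 CPM, highest) of day 10, and Ciita in graft 3 of day 17 (68.8 CPM, lowest). The others were Oasl2 in DC of graft 3 (52.6 CPM, lowest), Apoe in granulocytes of graft 3 (53.1 CPM, highest), Inhba in monocytes of graft 1 (140.3 CPM, highest) and Gzmd in the cells annotated Stem-Progenitor of graft 2 (7163 CPM, highest) on day 10, and on day 17 Inhba in monocytes of graft 4, which was at 0, and Ccl4 in NK cells of graft 4 (5417 CPM, highest).

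The change between the days differed between Rnls mutant and WT grafts, by the test of that difference in edgeR with an adjusted p under 0.05, for these of the genes named. The log2 change of Rnls mutant grafts exceeded that of WT grafts by 3.82 for Apoe, 3.64 for Ccl8, 2.85 for Lyz2 and 2.30 for Wfdc17 in CD4 T cells. The excess was 4.12 for Apoe, 3.87 for Ccl8 and 2.60 for Lyz2 in CD8 T cells, and 2.99 for Apoe, 3.34 for Ccl8 and 2.56 for Lyz2 in NK cells. In Treg it was 4.26 for Ccl8 and 2.82 for Lyz2, and in granulocytes 2.65 for Ccl8 and 4.78 for H2-Aa. All were expressed in macrophages, and H2-Aa was as high in DC, at 118 and 103% of macrophages on day 10 and day 17. The summed macrophage markers of these types are given above. Only genes named for a type were listed here, and others differed too. Among those were Rpl35, Rps29 and mt-Atp8 in CD4 T cells and Rps28, Cd69 and Klf2 in Treg.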

How the results depend on the processing

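Of 150 pairs of a named gene and a cell type with a call, 130 kept it under each alternative run and 0 changed direction. These pairs were selected with their values known and do not stand for all calls. Each day of the Rnls mutant grafts was 1 library, ILC-1 could be tested in 2 grafts a day, and the lowest summed depth was that of granulocytes (12529 UMIs). Without a filter on low counts, 698 genes were called in monocytes, 142 in NK cells and 791 in the cells annotated Stem-Progenitor. The genotype difference was then called for 138 genes in CD4 T cells, 79 in CD8 T cells, 39 in DC, 21 in granulocytes, 4 in ILC-1, 9 in macrophages, 9 in monocytes, 33 in NK cells and 47 in Treg. DESeq2 called 437 genes in monocytes and 85 in Treg, and a genotype difference for 14 in DC, 19 in granulocytes, 43 in macrophages and 3 in monocytes. The Rnls mutant grafts alone gave 63 genes in granulocytes and 530 in monocytes. Without the highest doublet scores 1 gene in DC and 5 in granulocytes differed between genotypes. Hashtag numbers do not pair grafts by the labels, and deviations of grafts with the same number correlated between -0.175 and 0.0957. A replicate block by hashtag number gave 5 genes in granulocytes and 6 in ILC-1, with genotype differences for 4 genes in granulocytes, 0 in ILC-1, 5 in macrophages and 17 in Treg, and without a call for Gzmb, Gzmc, Nr4a3, Cd69, Il7r, Mt1 and Hspa1a in ILC-1 and for Apoe and Tsc22d3 in granulocytes (adjusted p from 0.101 to 0.297). The edgeR test of cell numbers gave the log2 ratios 2.84 (B cells), -1.38 (CD8 T cells), 1.94 (macrophages), -2.61 (monocytes) and -2.23 (Stem-Progenitor). Each was past the threshold that the shares missed. DC, at -0.66, did not pass it (adjusted p = 0.213).

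With 1 graft left out in turn, the called genes ranged from 1111 to 1620 in CD4 T cells, 378 to 585 in CD8 T cells, 456 to 831 in DC, 3 to 20 in granulocytes, 4 to 231 in ILC-1, 83 to 264 in monocytes, 43 to 69 in NK cells, 169 to 436 in Stem-Progenitor and 66 to 160 in Treg. Genotype differences ranged from 22 to 38 in CD8 T cells, 1 to 3 in DC, 4 to 11 in granulocytes, 0 to 2 in ILC-1, 1 to 9 in macrophages and 11 to 23 in Treg. The share change of Rnls mutant minus that of WT, in percentage points, ranged from -0.073 to 0.12 (B cells), -0.103 to 2.06 (CD8 T cells), -0.042 to 0.561 (DC), -1.59 to 0.495 (monocytes), -1.05 to 0.706 (NK cells) and -1.05 to 0.178 (Treg), and that of NK cells was 0.029 without the cells annotated Stem-Progenitor. The Treg share itself changed by -1.07 to 0.165 percentage points. Ifng in NK cells turned to -0.057 without the filter and -0.17 with the block, and ranged from -0.56 to 0.39 with a graft left out. The cause was not tested for any of these beyond the smaller number of grafts.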

Other observations

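Further groups of genes were counted in macrophages, where 20.7% of all genes tested were higher and 21.4% lower. Of 14 tested genes of the G2 and M phases 8 were lower on day 17 and 0 higher, among them Mki67, Cdk1 and Birc5, with a median of -1.08 (5 lower without graft 2 of day 10). Of 28 genes of oxidative stress defense 15 were lower and 4 higher, the latter being Cat, Gstm1, Sod1 and Gpx3 (2 higher without graft 2 of day 17). Of 21 genes of endoplasmic reticulum stress 13 were lower and 0 higher. Of 7 cytotoxic effector genes that passed the filter in macrophages 7 were lower, Gzma and Gzmb among them. A gene can pass this filter through the grafts of 1 group alone, so this count is not a result about macrophages. The sum of 12 T cell markers in macrophages was 16.3 to 24.4 CPM on day 10 and 5.97 to 14.1 on day 17. The part of lymphocyte RNA in these levels was not tested. In monocytes the sum of 15 stromal transcripts was 50.7 to 169.5 CPM on day 10 and 292 to 438 on day 17, and the list is small in UMIs there.

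Apoe, Ccl8, H2-Aa and Dennd4a were higher on day 17 in 9 types, and Lyz2, Selenop, Slc9a9 and Arhgap15 in 8. Of the genes called in any type, 59 were higher and 61 lower in 5 types or more.

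The genes that were higher on day 17 were long. The median span from first to last base was 67.3 kb for genes higher in macrophages, 12.8 kb for those lower and 24.9 kb for all genes tested. In CD4 T cells the medians were 67.8, 11.7 and 25.5 kb, in CD8 T cells 70.2, 14.0 and 26.9 kb, in DC 71.5, 13.4 and 26.6 kb, in monocytes 108, 11.7 and 25.6 kb, and in Treg 106, 6.15 and 28.2 kb. NK cells were an exception, where the higher genes had a median of 29.4 kb, the lower ones 12.6 kb and all genes 31.2 kb, as were granulocytes with 8.20, 11.96 and 18.8 kb. Spans were found for over 99% of genes in each type, and they were looked at after the data had been seen. Whether unspliced transcripts, the state of the cells or the library stands behind this was not tested.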
